A study of Mus musculus with 8 samples.

Results

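The comparison described here is between murine skeletal myoblasts given an siRNA against G9a (siG9a) and myoblasts given a scrambled control siRNA, both taken at day 0. It used 4 of the 8 arrays of the study, chosen by their sample titles: siG9a replicates 1 and 2 and control replicates 1 and 2. Each siG9a array was set against the control array with the same replicate number, which gave 2 pairs, and 1 probe stood for each gene, the one with the largest SD over the 8 arrays. The other 4 arrays hold the same 2 treatments at day 1. The labels do not say what day 0 and day 1 are counted from, how long after the siRNA the cells were taken, or whether the myoblasts are a primary culture or a cell line. All 8 samples are total RNA on Illumina WG-6 v2.0 expression arrays, and the design text calls the duplicates biological.

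G9a, encoded by Ehmt2, is a lysine methyltransferase that places mono- and dimethylation on lysine 9 of histone H3, a mark found at repressed genes, and it works largely as a heterodimer with its relative GLP, encoded by Ehmt1. Myoblasts are the proliferating precursors of muscle fibres. To differentiate, they leave the cell cycle and fuse, and they switch on myogenin and then the genes of the contractile apparatus. G9a has been described in myoblasts as a restraint on MyoD-driven transcription.

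The values are the deposited processed values on a log scale, taken here as base 2 because the base is not stated. They are relative values: the median over the 8 arrays lay within 0.1 of 0 for 85.5% of probes, though some genes described here, such as Cdkn1c, were far from 0. What 0 stands for is not stated, so a value says nothing about how strongly the gene was expressed. A difference of 1 between arrays stands for a doubling under that reading. Levels of different genes cannot be compared, detection above background is unknown, and the label of myoblast cannot be checked from the level of its markers. The number of arrays limits the precision of every value. Array medians at day 0 were -0.146 and 0.034 in siG9a and -0.069 and 0.038 in control, and the differences within pairs had a median of -0.06 in pair 1 and -0.00 in pair 2.

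The targeted gene was lower in both siG9a arrays. The chosen Ehmt2 probe read -0.82 and -0.69 in siG9a replicates 1 and 2, against 1.23 and 0.59 in control replicates 1 and 2. Both siG9a arrays lay below both control arrays, and the siG9a level was 24.1% of control in pair 1 and 41.2% in pair 2. The mean difference was -1.67 ± 0.24 on the log2 scale (SE from limma's fit to all 8 arrays, 2 arrays per group). Its limma adjusted p was 0.487 over all features. A probe for the same transcript record differed by -2.10 and -1.35 in pairs 1 and 2, and a probe for another transcript record of Ehmt2 by -0.18 and -0.09. For Ehmt1, the partner, the chosen probe read -0.24 and 0.19 in siG9a against -0.19 and 0.33 in control, pair differences of -0.05 and -0.14, and the other Ehmt1 probe differed by 0.12 and 0.01. The groups overlapped for Ehmt1, and the difference of -0.09 ± 0.14 was smaller than its error. Of the 9 H3K9 methyltransferase genes measured, 1 was higher and 5 were lower in both pairs, and Ehmt2 alone reached a difference of 0.5 in both. Setdb1, another enzyme of this class, read 0.01 and -0.01 in siG9a against 0.20 and 0.14 in control.

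**Figure D1:**
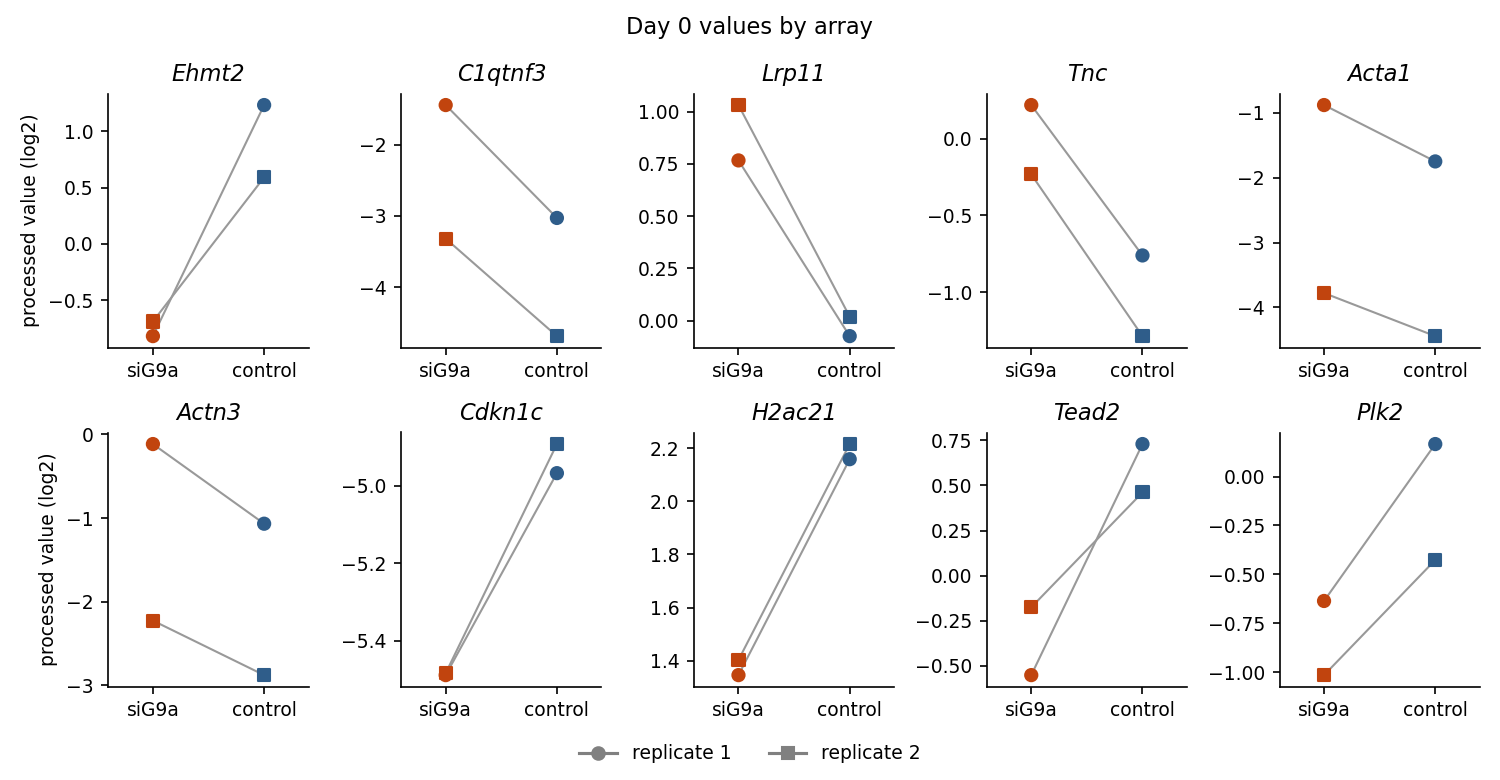
Day 0 values of 10 genes on the 4 arrays, as processed relative log2 values, with siG9a at the left and control at the right of each panel. Circles are replicate 1 and squares replicate 2, and a grey line joins the arrays of a pair. The scale differs between panels. For Ehmt2, Lrp11, Tnc, H2ac21, Tead2, Plk2 and Cdkn1c the groups did not overlap, while for Acta1 and Actn3 the replicates stood further apart than the treatments.

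Across the whole array, 31443 features were compared, 21946 named genes and 9497 probes without a gene name. No feature passed an adjusted p of 0.05 in limma's test at day 0 (0%, 0 of 31443), and the smallest adjusted p was 0.487. Before adjustment, 1728 features (5.5%) had p under 0.05, and 1572 would at that threshold by chance alone. The fit took the replicate number as a block. Without the replicate block 123 features had unadjusted p under 0.05 and none passed after adjustment. An exact permutation test of 2 arrays against 2 that ignores the pairs cannot give p below 0.333, and 2 pairs allow no lower p. The genes below are therefore described by their direction in both pairs, and none of them is called changed.

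In sign alone, 6303 features (20%) were higher in siG9a in both pairs, 10757 (34.2%) were lower in both, and 14383 went opposite ways. This split depends on the scaling: with each array centred on its median, 28.3% were higher and 25.6% lower in both pairs. A difference of at least 0.5 in both pairs was found for 60 features above control (0.191%) and for 25 features below control (0.0795%). The higher set held 54 named genes and 6 unnamed probes, and the lower set 22 named genes and 3 unnamed probes. Map7d1 was the single feature that differed by at least 0.5 in opposite ways, by 0.66 in pair 1 and -0.73 in pair 2, and it is named after its values were seen. At the edge of the higher set Mmp13 was inside, at 0.50 and 0.79, and Ganc just outside, at 0.67 and 0.4967. At the edge of the lower set Gsdmd was inside, at -0.73 and -0.51, and Rbms3 just outside, at -0.5178 and -0.4992.

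Pair 1 differed more than pair 2. In pair 1, 1112 features were at least 0.5 from 0, against 179 in pair 2, and the SD of the differences over all features was 0.228 in pair 1 and 0.156 in pair 2. The pair 1 difference was the larger for 46 of the 60 higher features and 21 of the 25 lower ones. The median difference was 0.96 in pair 1 and 0.66 in pair 2 for the higher set, and -0.79 and -0.59 for the lower set. Of the 60 higher features, 29 had both siG9a arrays above both control arrays, and of the 25 lower ones 20 had both below. The same non-overlap held for 1743 of all 31443 features upward and 3543 of 31443 downward. The sets were chosen for large differences in both pairs, which in itself makes non-overlap more common.

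**Figure D2:**
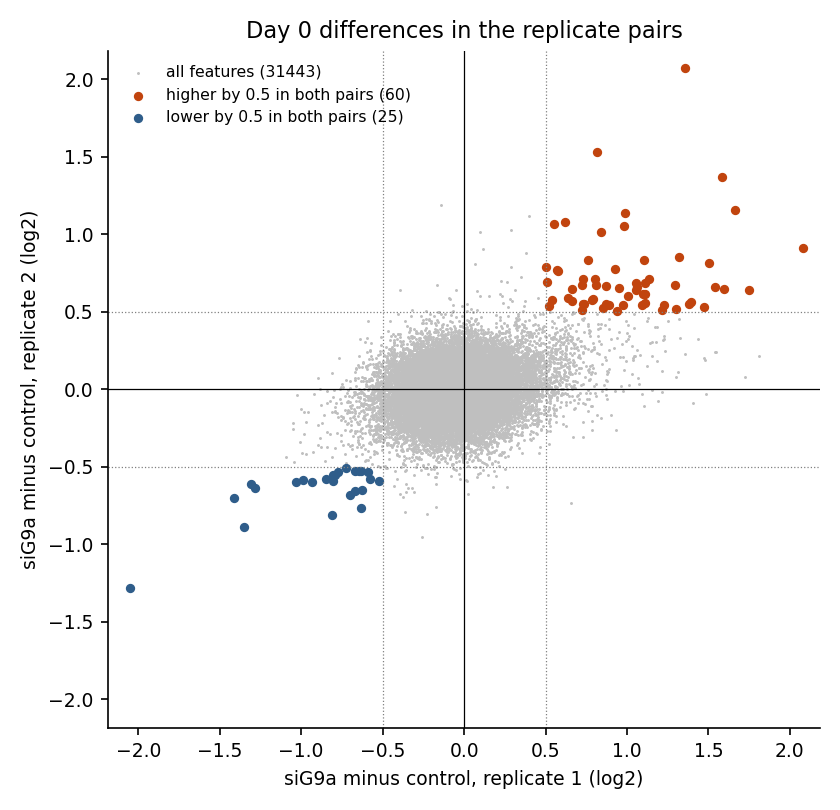
Difference between siG9a and control at day 0 for each of 31443 features, with pair 1 on the horizontal and pair 2 on the vertical axis, both in log2 units. Red points are the 60 features higher and blue points the 25 features lower by at least 0.5 in both pairs, and dotted lines mark that threshold. The cloud is wider along pair 1, with SDs of 0.228 and 0.156.

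The 15 named genes furthest above control, ranked by the smaller of the pair differences, were C1qtnf3, Gm5662, Gsta3, Gbp2, Tnc, Slc40a1, Fcgr4, Lrp11, Ccl9, Ctsw, Apol9b, Pla1a, Fbxl13, Adam23 and Chrng. Their pair differences lay between 0.69 and 2.08. For 10 of the 15 both siG9a arrays were above both control arrays, as for 1743 of all 31443 features. C1qtnf3, a secreted relative of adiponectin, read -1.44 and -3.32 in siG9a replicates 1 and 2, against -3.03 and -4.69 in control replicates 1 and 2. The replicates stood further apart than the treatments, so the groups overlapped, although siG9a was higher in both pairs, by 1.59 and 1.37. Its mean difference was 1.48 ± 0.25, a 2.78-fold higher level, and all 3 of its probes were higher in both pairs.

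Tnc encodes tenascin C, a matrix glycoprotein of regenerating muscle. Its chosen probe read 0.22 and -0.23 in siG9a against -0.76 and -1.29 in control. The groups did not overlap and the pairs agreed closely, at 0.98 and 1.05, but only 3 of the 6 Tnc probes were higher in both pairs. Lrp11, a member of the LDL receptor-related family, read 0.77 and 1.03 in siG9a against -0.07 and 0.02 in control, with no overlap and a mean difference of 0.93 ± 0.15. Slc40a1, the iron exporter ferroportin, read 0.48 and -1.57 in siG9a against -1.60 and -2.48 in control. Its difference was uneven, 2.08 in pair 1 and 0.91 in pair 2, and the lower siG9a array barely cleared the higher control array.

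Several genes of this group belong to immune and detoxification programmes. Gbp2, an interferon-induced GTPase, read 0.13 and 0.69 in siG9a against -0.86 and -0.45 in control, without overlap, on the 1 of its 3 probes that was higher in both pairs. Fcgr4, an Fc receptor of myeloid cells, read 1.11 and 0.21 in siG9a against -0.21 and -0.64 in control. Ccl9, a chemokine, read 0.49 and 0.65 in siG9a against -0.61 and -0.19 in control, and Ctsw, a cathepsin of cytotoxic lymphocytes, read 1.25 and 0.47 in siG9a against -0.25 and -0.35 in control. None of these 4 genes overlapped between treatments, as for 1743 of all 31443 features upward, and all 4 were chosen for large differences in both pairs. Gsta3, a glutathione S-transferase, read 1.68 and -0.02 in siG9a against 0.02 and -1.17 in control, which overlapped, with pair differences of 1.66 and 1.15 on 1 of its 2 probes.

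Apol9b, of the apolipoprotein L family, differed by 0.76 and 0.83. Fbxl13, an F-box protein, differed by 1.14 and 0.71 on 1 of its 3 probes. Pla1a, a phosphatidylserine-specific phospholipase, differed by 0.73 and 0.71 and was higher on all 3 of its probes. Adam23, a disintegrin family member without protease activity, differed by 0.80 and 0.71 on 1 of its 2 probes. It read -0.52 and 1.23 in siG9a against -1.32 and 0.52 in control. Its replicates were further apart than its treatments. Gm5662, a predicted gene, had the largest mean difference of the higher set, 1.71 ± 0.32, from siG9a values of -0.02 and 2.37 against control values of -1.37 and 0.30, on 1 of its 2 probes. Its groups overlapped.

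**Figure D3:**
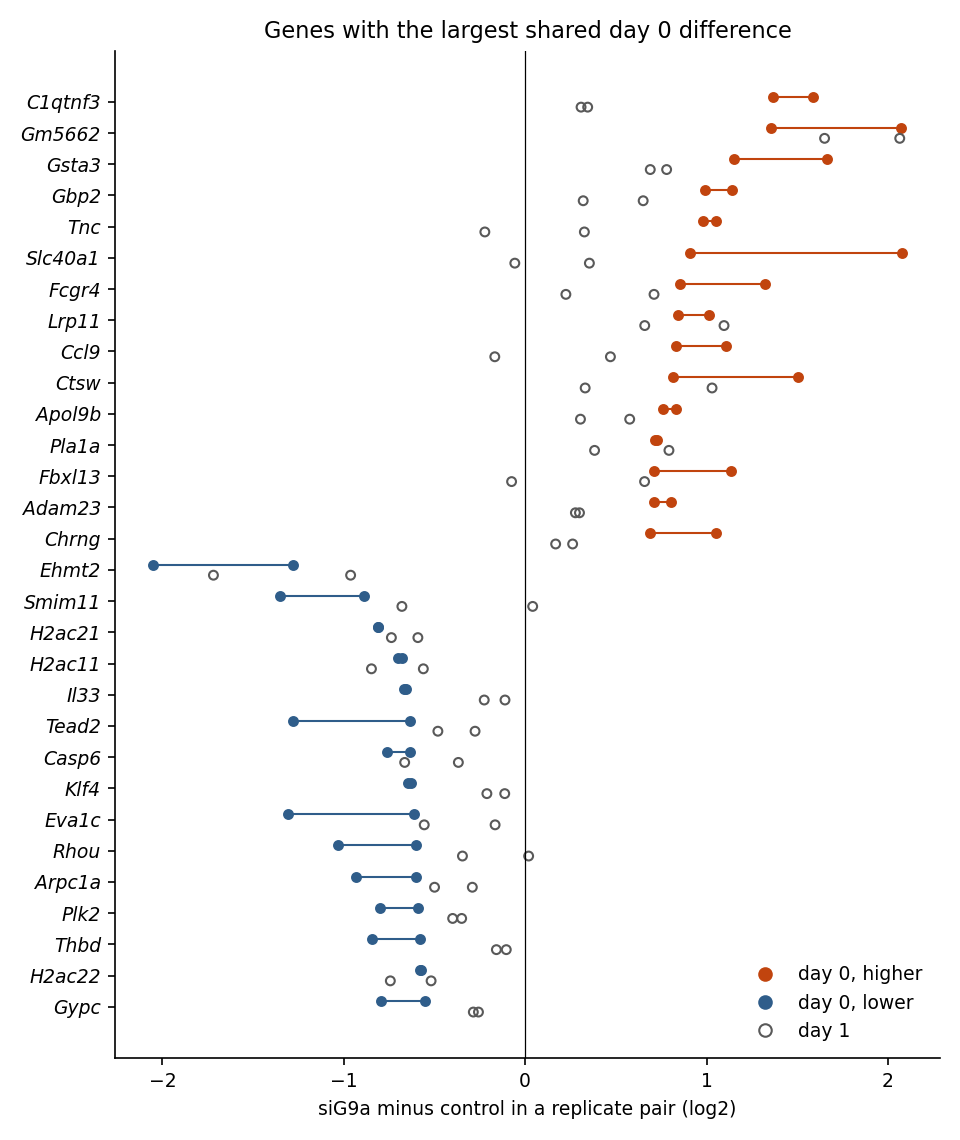
Difference between siG9a and control in each replicate pair, in log2 units, for the 15 named genes furthest above and the 15 furthest below control at day 0. Filled points joined by a line are the 2 day 0 pairs, red for higher and blue for lower, and open circles are the 2 day 1 pairs. Day 1 differences lie nearer 0 for most of these genes, with Gm5662 among those of similar size on both days.

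Of the gene lists used, the sarcomere list had the most members in the higher set. Of 46 sarcomere genes measured, 29 (63%) were higher in siG9a in both pairs and 3 (6.52%) lower, and 8 were higher by at least 0.5 in both, against 0.191% of all features. These 8 were Acta1 (skeletal alpha-actin), Actn3 (the fast-fibre alpha-actinin), Mylpf and Myl4 (myosin light chains), Tnnc1 and Tnnc2 (troponin C of slow and cardiac, and of fast fibres), Tnnt1 (slow troponin T) and Atp2a1 (the fast-fibre calcium pump of the sarcoplasmic reticulum). The list median was 0.89 in pair 1 and 0.13 in pair 2, so the shift was mostly that of pair 1.

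Acta1 read -0.88 and -3.78 in siG9a replicates 1 and 2, against -1.75 and -4.44 in control replicates 1 and 2. Both replicate 2 arrays lay far below both replicate 1 arrays, the groups overlapped, and siG9a was higher within pairs by 0.87 and 0.66. Mylpf read -0.76 and -4.19 in siG9a against -1.82 and -4.83 in control, and Tnnc1 read -0.82 and -4.29 in siG9a against -2.05 and -4.84 in control. The same arrangement held for all 8 genes: every one overlapped between treatments, and in control the replicate 1 array was above the replicate 2 array by 1.81 to 3.15, and the treatment differences lay between 0.51 and 1.3956. Actn3 had the smallest error, 0.80 ± 0.14, from siG9a values of -0.12 and -2.23 against control values of -1.07 and -2.88, and all 3 of its probes were higher in both pairs. The error came closest to the difference for Mylpf, at 0.85 ± 0.77, and Acta1, at 0.77 ± 0.65. These errors come from the fit to all 8 arrays, which gives both days the same replicate offset. They therefore also take in replicate gaps that changed between days, beside the spread of the day 0 pairs. For Mylpf the day 1 arrays read 0.02 and 0.22 in siG9a and 0.20 and -0.02 in control, without the gap of day 0. A different share of cells of one type and a different amount of RNA per cell cannot be told apart in these bulk samples.

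As these genes were higher together within pairs, the promoter windows of 4 muscle genes of the higher set are shown. Each runs from 250 bases before to 50 bases after an annotated start of the gene, from RefSeq on build GRCm38.p6. For Mylpf that start lies inside the gene, which spans 127208848 to 127214288 on chr7. The Myl4 window, counted below but not shown, also lies inside its gene. Capitals mark the E-box CANNTG, the core bound by MyoD and myogenin, and the MCAT element CATTCC or its reverse complement GGAATG, the core bound by TEAD factors, searched on both strands with no overlaps between them. The window of Acta1 is chr8:123894726-123895025 on the minus strand, that of Mylpf chr7:127211358-127211657 on the plus strand, that of Tnnc1 chr14:31208062-31208361 on the plus strand and that of Chrng chr1:87205561-87205860 on the plus strand.
Acta1: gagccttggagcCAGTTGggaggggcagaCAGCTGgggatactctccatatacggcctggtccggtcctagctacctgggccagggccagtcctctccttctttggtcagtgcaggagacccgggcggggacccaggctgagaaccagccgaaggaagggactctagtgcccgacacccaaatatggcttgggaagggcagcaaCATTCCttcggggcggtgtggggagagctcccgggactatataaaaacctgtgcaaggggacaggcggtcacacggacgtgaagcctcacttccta
Mylpf: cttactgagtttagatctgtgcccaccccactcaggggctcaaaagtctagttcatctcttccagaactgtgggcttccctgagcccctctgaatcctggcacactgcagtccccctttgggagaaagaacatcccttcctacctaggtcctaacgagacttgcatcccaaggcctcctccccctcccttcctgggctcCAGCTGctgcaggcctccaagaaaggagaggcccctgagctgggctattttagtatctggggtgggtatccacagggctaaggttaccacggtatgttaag
Tnnc1: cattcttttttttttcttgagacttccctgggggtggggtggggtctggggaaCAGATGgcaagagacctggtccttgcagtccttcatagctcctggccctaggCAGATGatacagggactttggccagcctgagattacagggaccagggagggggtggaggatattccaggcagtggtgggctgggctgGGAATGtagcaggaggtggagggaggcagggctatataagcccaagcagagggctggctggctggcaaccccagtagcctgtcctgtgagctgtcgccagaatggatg
Chrng: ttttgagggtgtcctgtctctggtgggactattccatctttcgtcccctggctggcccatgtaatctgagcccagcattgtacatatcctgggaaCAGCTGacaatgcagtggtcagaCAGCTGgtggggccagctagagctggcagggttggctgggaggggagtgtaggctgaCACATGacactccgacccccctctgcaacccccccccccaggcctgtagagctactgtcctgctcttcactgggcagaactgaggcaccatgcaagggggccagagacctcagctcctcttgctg
Acta1 and Tnnc1 each held 2 E-boxes and 1 MCAT element, Mylpf held 1 E-box, and Chrng held 3 E-boxes. Of the 8 sarcomere genes, 7 had a window, of which 6 (85.7%) held an E-box and 2 (28.6%) an MCAT element, against 72.3% and 14.7% of all 32851 windows of the same length. For the named genes of the higher set, 58 windows of 42 genes held an E-box in 74.1% and an MCAT element in 19%. For those of the lower set, 19 windows of 17 genes did so in 84.2% and 10.5%. E-boxes of this loose form were thus common everywhere, and a match describes the letters and not a bound site.

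Other muscle genes outside the contractile list were higher in both pairs too. Chrng, the fetal gamma subunit of the acetylcholine receptor, read -1.20 and -4.37 in siG9a against -2.26 and -5.06 in control, on 1 of its 2 probes. It shared the low replicate 2 arrays of the sarcomere genes, and its groups overlapped. Chrna1, the receptor's alpha subunit, differed by 0.31 and 0.64, Cdh15, the cadherin of myoblasts and satellite cells, by 0.66 and 0.48, and Sgca, a sarcoglycan of the dystrophin complex, by 1.25 and 0.44. Of 33 adhesion, fusion and dystrophin complex genes, 13 were higher and 10 lower in both pairs, and Chrng alone reached 0.5 in both. Hes6, a bHLH factor that promotes myogenic differentiation, read -0.11 and -2.26 in siG9a against -0.84 and -2.94 in control and differed by 0.73 and 0.67, on all 3 of its probes.

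The myogenic regulators themselves differed less evenly. Of 15 measured, 8 were higher and 3 lower in both pairs, and none reached 0.5 in both. Myog, the factor that starts terminal differentiation, read -1.29 and -4.70 in siG9a against -2.35 and -4.96 in control, a difference of 1.06 in pair 1 and 0.25 in pair 2. Embryonic myosin, Myh3, was similarly uneven at 0.9968 and 0.18. Myod1 differed by 0.00 and 0.19, Myf5 by -0.20 and -0.13 and Pax7 by -0.04 and -0.10. Des, the muscle intermediate filament, differed by 0.19 and 0.16. Over the 8 myoblast-defining markers, 6 were higher and 2 lower in both pairs, with list medians of 0.25 and 0.17.

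**Figure D4:**
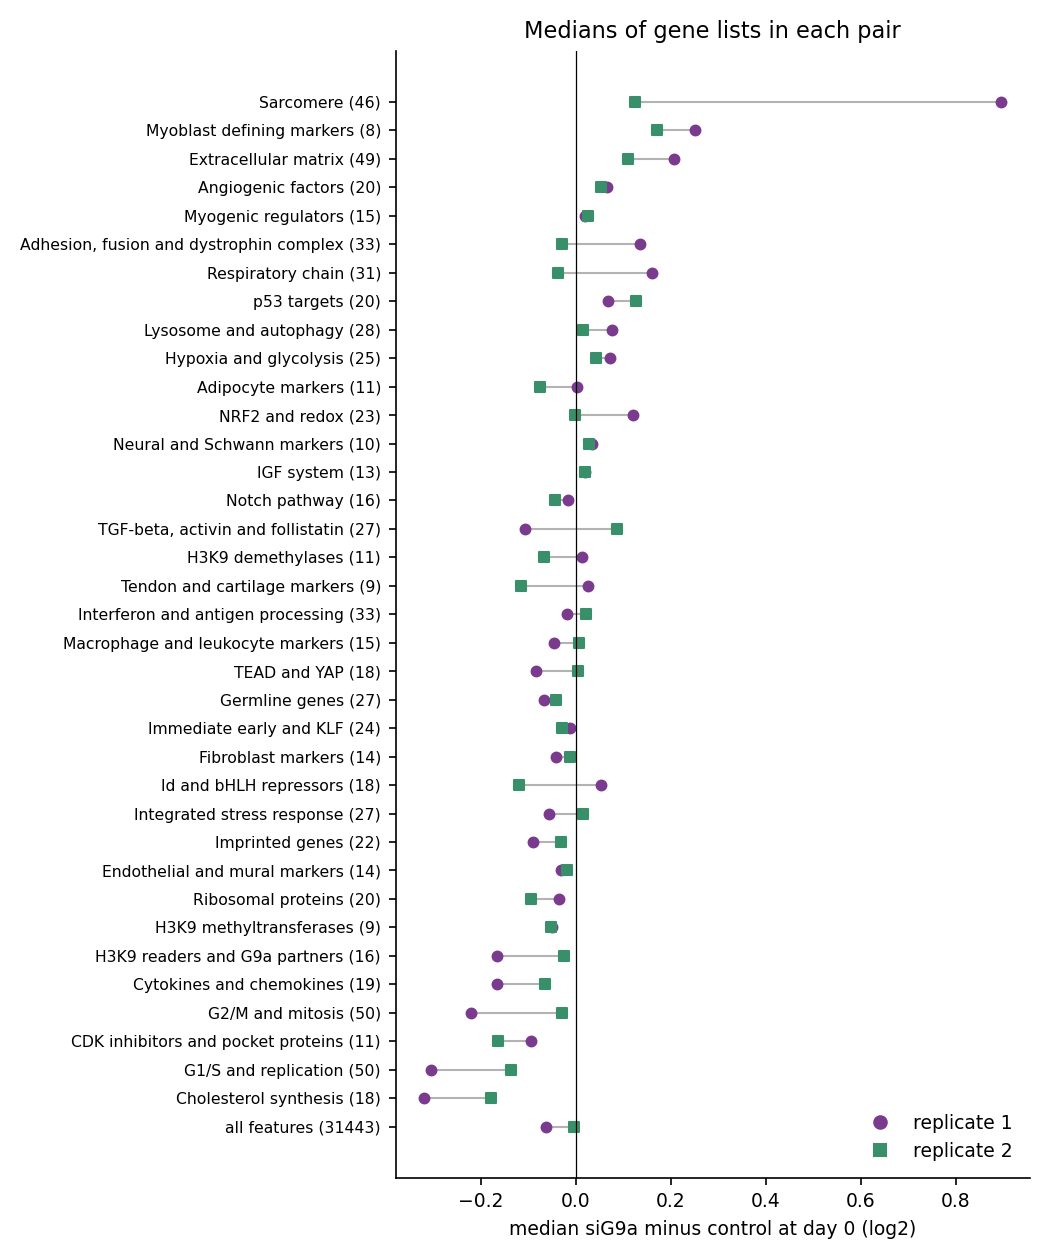
Median difference between siG9a and control at day 0 for each of the 36 gene lists, without the histone genes looked up by symbol, in log2 units, with the number of measured genes in brackets. Circles are replicate pair 1 and squares pair 2, and the bottom row gives all 31443 features. Sarcomere genes had the widest gap between pairs, 0.89 and 0.13, and cholesterol synthesis and replication genes had the lowest pair 1 medians of the lists plotted.

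The remaining 31 named genes of the higher set had pair differences between 0.50 and 1.75. Of them, 17 had both siG9a arrays above both control arrays, as had 1743 of all 31443 features. They covered interferon-induced genes (Ifitm1, Gbp2b), leukocyte-type enzymes and signalling proteins (Alox5ap, Ncf4, Plac8, Sh3bp2), matrix and matrix-remodelling genes (Col7a1, Itga11, Adamts4, Mmp13), steroid and retinoid enzymes (Hsd11b1, Rdh5), and the cytoskeletal genes Mylk and Pdlim3. Hes6, Angpt2 and Fgf21 are given with their lists. The others were Sphk1, Pde4dip, Susd1, Pik3r3, Gldc, Foxq1, Spsb1, Gcnt2, Scamp5, Baalc, Smox, Socs2, 1700093K21Rik and Cd200. Itga11, the collagen-binding integrin alpha 11, differed by 1.75 and 0.64, the widest in pair 1 among these 31, and Ifitm1 differed by 1.54 and 0.66, on 2 of its 5 probes. Of the 31 named genes in the whole higher set that had several probes, 13 had every probe higher in both pairs.

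Below control, Ehmt2 was followed by Smim11, H2ac21, H2ac11, Il33, Tead2, Casp6, Klf4, Eva1c, Rhou, Arpc1a, Plk2, Thbd, H2ac22 and Gypc. Their pair differences, Ehmt2 included, lay between -2.05 and -0.55. For 12 of the 15 both siG9a arrays were below both control arrays, as for 3543 of all 31443 features. Smim11, a small membrane protein, read -1.47 and -0.70 in siG9a against -0.11 and 0.19 in control, a difference of -1.12 ± 0.18 without overlap. Tead2, a DNA-binding partner of the YAP and TAZ coactivators, read -0.55 and -0.18 in siG9a against 0.73 and 0.46 in control. It was clearly separated, with differences of -1.28 in pair 1 and -0.64 in pair 2 and a mean of -0.96 ± 0.17. Wwtr1, which encodes TAZ, differed by -0.56 and -0.18, and of 18 genes of this pathway 5 were higher and 9 lower in both pairs.

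Plk2, a polo-like kinase and p53 target, read -0.64 and -1.02 in siG9a against 0.17 and -0.43 in control, and its difference of -0.70 ± 0.10 had the smallest error of the 15. Casp6, an effector caspase, differed by -0.63 and -0.76 on both of its probes, and the erythrocyte-type membrane protein Gypc by -0.79 and -0.55, with overlap between treatments for both genes. Klf4, a zinc-finger transcription factor, read -0.66 and -0.61 in siG9a against -0.03 and 0.03 in control, without overlap and on all 3 probes. Il33, a cytokine of the interleukin 1 family, read -0.30 and 0.97 in siG9a against 0.36 and 1.63 in control. Its pairs agreed, at -0.67 and -0.66, while its replicates stood further apart than its treatments.

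Arpc1a, Thbd and Eva1c were also separated between treatments. Arpc1a, a subunit of the Arp2/3 complex that nucleates actin, differed by -0.93 and -0.60. Thbd, the thrombin receptor thrombomodulin, differed by -0.85 and -0.58, and Eva1c by -1.31 and -0.61. The other 7 named genes of the lower set were Gcat, Sfxn1, Tomm7, Kcnk5, Ptx3, Cdkn1c and Gsdmd, with pair differences between -0.81 and -0.51. Of 9 named genes of the lower set with several probes, 8 had every probe lower in both pairs.

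H2A histone genes recurred in the lower set. H2ac21 read 1.35 and 1.40 in siG9a against 2.16 and 2.22 in control, close within each treatment, with a difference of -0.81 in each pair. H2ac11 differed by -0.70 and -0.68 and H2ac22 by -0.57 and -0.58. None of the 3 overlapped, as for 3543 of all 31443 features downward, and all 3 were chosen for large differences in both pairs. Looked up by symbol after these values were seen, 16 H2A genes had a median of -0.36 in pair 1 and -0.35 in pair 2, with 11 lower and 3 higher in both pairs. Over all 59 histone genes found by symbol the medians were 0.06 and -0.19. Clustered H2A genes are near-identical copies, so their probes may read each other's transcripts and the 3 genes may not be separate observations. Their pairs agreed at day 0, but the errors of the fit over both days were wide, for example -0.81 ± 0.31 for H2ac21. At day 1 H2ac21 read -0.27 and -1.37 in siG9a replicates 1 and 2, against 0.47 and -0.78 in control. That replicate gap was not seen at day 0.

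Cell cycle genes were mostly lower, by small amounts. Of 50 G1/S and DNA replication genes, 42 (84%) were lower and 2 (4%) higher in both pairs, with list medians of -0.30 and -0.14, and none reached 0.5 in both. Gins1, of the replicative helicase complex, read 1.43 and 1.30 in siG9a against 1.94 and 1.69 in control, and Gins2 differed by -0.36 and -0.61. For Chaf1a, which loads histones behind the fork, the differences were -0.41 and -0.34. Ccnd1, cyclin D1, read 2.24 and 1.78 in siG9a against 2.84 and 2.01 in control, differences of -0.59 and -0.23, on 2 of its 3 probes. Of 50 G2/M and mitosis genes, 28 were lower and 1 higher in both pairs, with list medians of -0.22 and -0.03. Within it Aurkb, the kinase of the chromosomal passenger complex, differed by -0.34 and -0.36, Mad2l1, a spindle checkpoint protein, by -0.55 and -0.29, and the spindle proteins Tpx2 by -0.25 and -0.29 and Kif20b by -0.26 and -0.21.

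The inhibitors of cyclin-dependent kinases went different ways. Cdkn1c, which encodes p57 and is imprinted, read -5.49 and -5.48 in siG9a against -4.97 and -4.89 in control, with tight replicates and differences of -0.52 and -0.59. Cdkn1a, which encodes p21 and rises when myoblasts leave the cycle, read -0.85 and -2.73 in siG9a against -1.32 and -3.13 in control, differences of 0.48 and 0.39 on all 3 probes, with overlap between treatments. Rb1, the retinoblastoma protein, differed by 0.78 and 0.16 and Cdkn2a by -0.18 in each pair. Of the 11 inhibitors and pocket proteins measured, 3 were higher and 7 lower in both pairs. Among 20 p53 targets 9 were higher and 4 lower in both, with Gadd45a at 0.76 and 0.38, Fas at 0.63 and 0.32 and Trp53inp1 at 0.60 and 0.31.

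Matrix genes leaned upward. Of 49 measured, 30 (61.2%) were higher and 4 (8.16%) lower in both pairs, with list medians of 0.21 and 0.11, and Tnc alone reached 0.5 in both. Col18a1, the basement membrane collagen that yields endostatin, differed by 0.69 and 0.38, and the collagen cross-linking oxidases Loxl1 and Lox by 0.63 and 0.44, and by 0.43 and 0.48. Cholesterol synthesis genes leaned downward, with 9 of 18 lower and 2 higher in both pairs and list medians of -0.32 and -0.18. Cyp51 read -1.12 and -0.02 in siG9a against -0.33 and 0.36 in control, Lss differed by -0.55 and -0.26 and Sc5d by -0.36 and -0.23. All 3 encode enzymes of the sterol pathway after squalene.

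Secreted regulators were mixed. Angpt2, angiopoietin 2, read 1.06 and 0.93 in siG9a against 0.32 and 0.39 in control, without overlap and with a difference of 0.64 ± 0.12. That was on the 1 of its 2 probes that was higher in both pairs. Of 20 angiogenic factors 9 were higher and 3 lower in both pairs, with Pdgfb at 0.58 and 0.31 and Hgf at 0.23 and 0.33. Only 1 of the 2 Pdgfb probes and 1 of the 3 Hgf probes were higher in both pairs. Among 19 cytokines and chemokines 6 were higher and 11 lower in both pairs, with Cxcl12 at -0.97 and -0.42, Ccl7 at -0.42 and -0.39 and Ccl2 at -0.49 and -0.29. Of 27 genes in the list of TGF-beta, activin and follistatin, 8 were higher and 5 lower in both pairs. Fst, follistatin, which binds activin and myostatin, differed by 0.9985 and 0.36. Inhba, the activin A subunit, differed by 0.26 and 0.69, and Grem1, a BMP antagonist, by -0.61 and -0.28.

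Gstm2, a glutathione S-transferase, differed by 1.23 and 0.32, and of 23 NRF2 and redox genes 7 were higher and 4 lower in both pairs. Fgf21, a secreted factor of the integrated stress response, read -2.83 and -4.49 in siG9a against -4.13 and -5.00 in control, differences of 1.30 and 0.52, while 5 of 27 genes of that response were higher and 8 lower in both pairs. Among 24 immediate early and KLF genes 8 were higher and 10 lower in both, with the phosphatase gene Dusp1 at -0.69 and -0.39. The bHLH repressors Twist2 and Twist1 differed by -0.64 and -0.35, and by -0.46 and -0.31, in a list of 18 with 5 higher and 6 lower. Of 16 H3K9 readers and G9a partners none was higher and 8 (50%) were lower in both pairs, against 34.2% of all features, among them Uhrf1 at -0.49 and -0.32, Dnmt1 at -0.41 and -0.12, Trim28 at -0.11 and -0.17 and Cbx5 at -0.11 and -0.23. Among 11 H3K9 demethylases 2 were higher and 4 lower, with Kdm4a at -0.15 and -0.40 and Kdm4b at 0.14 and 0.20.

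Other pathway lists had no member at 0.5 in both pairs apart from those named above. The 33 interferon and antigen processing genes had 8 higher and 8 lower in both pairs, with Oasl2 at 0.62 and 0.19. Irgm1 of that list differed by -0.33 and -0.20, on 1 of its 3 probes. Of 20 ribosomal protein genes 2 were higher and 10 lower, with Rpl26 at -0.38 and -0.48 and Rps12 at -0.27 and -0.33. The 31 respiratory chain genes had 9 higher and 2 lower, with Cox6c at 0.42 and 0.34, and the 28 lysosome and autophagy genes had 10 higher and 6 lower, with Ctsl at 0.49 and 0.41. Of 22 imprinted genes 2 were higher, with Peg3 at 0.41 and 0.17, and 7 lower, and of 27 germline genes 2 were higher and 9 lower, with Ddx4 at -0.20 and -0.25. Notch pathway genes had 3 of 16 higher and 6 lower, the IGF system 4 of 13 higher and 2 lower, and hypoxia and glycolysis genes 8 of 25 higher and 5 lower.

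Markers of other cell types were divided between the directions. Of 15 macrophage and leukocyte markers 3 were higher and 4 lower in both pairs, with medians on the arrays of -0.20 and 0.07 in siG9a and -0.13 and 0.05 in control. Fcgr4 was the only one of them to reach 0.5 in both pairs. Among other myeloid markers Itgam differed by 0.11 in each pair, Fcgr1 by -0.14 and -0.10, and Adgre1 by -0.19 and -0.09. Fibroblast markers had 4 of 14 higher and 4 lower, with Mfap5 at 0.22 and 0.27 and Pi16 at -0.16 and -0.13. Endothelial and mural markers had 4 of 14 higher and 5 lower, with Flt1, a VEGF receptor, at -0.29 and -0.50 on 1 of its 2 probes. Rgs5 of that list differed by 0.26 and 0.28. Adipocyte markers had 2 of 11 higher and 3 lower, with Lpl, lipoprotein lipase, at 0.40 and 1.12 on 1 of its 2 probes. Adipoq, by contrast, differed by -0.27 and -0.15 and Fabp4 by -0.05 and -0.16. Neural and Schwann markers had 3 of 10 higher and 2 lower, and tendon and cartilage markers 1 of 9 higher and 3 lower. Which of these markers were above background is unknown, and their part in the higher immune-type genes was not tested.

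The day 1 arrays give the same measure in other samples. They entered the choice of the day 0 sets only through the probe kept for each gene, the one with the largest SD over all 8 arrays. Of the 60 features higher at day 0, 45 (75%) were higher in siG9a in both day 1 pairs, 2 were lower in both and 13 were mixed, where 33.2% of all features were higher in both. Of the 25 features lower at day 0, 22 (88%) were lower in both day 1 pairs, none was higher in both and 3 were mixed, where 22.5% of all features were lower in both. At a difference of 0.5 in both day 1 pairs, 9 of the 60 were higher, where 0.0668% of all features were, and 4 of the 25 were lower, where 0.0827% of all features were. No feature passed limma's adjusted p of 0.05 at day 1 (0%), where 1195 had unadjusted p under 0.05 and the smallest adjusted p was 0.993.

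The day 1 differences were the smaller ones. The median was 0.84 at day 0 and 0.27 at day 1 for the higher set, and -0.69 at day 0 and -0.36 at day 1 for the lower set, and day 1 was smaller for 55 of the 60 and 22 of the 25. The sets were chosen for large day 0 differences, and no such choice was made at day 1. Tested directly, no feature had a day 0 difference that departed from its day 1 difference at an adjusted p of 0.05 in limma (0%), with 1382 features at unadjusted p under 0.05 and a smallest adjusted p of 0.92.

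Some genes differed by similar amounts on both days and others were near 0 at day 1. Ehmt2 differed by -2.05 and -1.28 at day 0 and by -1.72 and -0.96 at day 1. Gm5662, at 2.07 and 1.65 on day 1, Lrp11, at 1.10 and 0.66, and Hsd11b1, at 1.11 and 0.87, were of the first kind, as were H2ac21, at -0.74 and -0.59, H2ac11, at -0.85 and -0.56, and Cdkn1c, at -0.88 and -0.46. C1qtnf3 differed by 0.34 and 0.31 at day 1, against 1.59 and 1.37 at day 0, and Tnc by 0.33 and -0.22. The 8 sarcomere genes differed by -0.20 to 0.34 at day 1, with medians of -0.06 and 0.24, and 3 of the 8 were higher in both day 1 pairs. Acta1 differed by -0.11 and 0.15 and Mylpf by -0.19 and 0.23. The replication list, in which 42 of 50 were lower in both pairs at day 0, had 36 of 50 lower in both at day 1. The matrix list, in which 30 of 49 were higher in both pairs at day 0, had 7 higher and 19 lower at day 1.

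**Figure D5:**
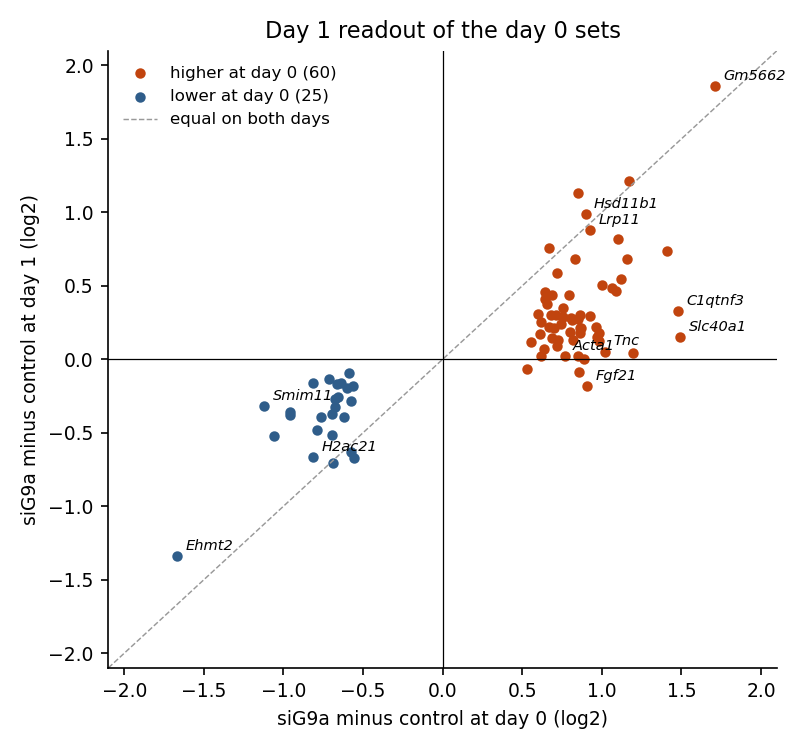
Mean difference between siG9a and control at day 1 (vertical) against day 0 (horizontal), in log2 units, for the 60 features higher and 25 features lower by at least 0.5 in both day 0 pairs. The dashed line marks equal differences on both days. Most points lie on the same side of 0 on both days but nearer 0 at day 1, while Gm5662, Lrp11 and Ehmt2 lie near the line.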

How the data were processed

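The deposited log2-scale values of 45281 Illumina probes on 8 arrays were used as the authors gave them. For scanner software, background correction, normalization and log base, the details were not given in the sources used here. Per the values, 32.9% of probes have a median of 0 over the arrays (within 1e-05). A second deposited table, whose 16 columns could not be tied to samples, was not used. Of the probes, 35784 had 1 gene symbol in the platform annotation, of which 28620 were updated by Entrez ID and 2637 by accession through RefSeq (GRCm38.p6), and 8521 genes had several probes. For each gene the probe with the largest SD over the 8 arrays was kept. Other probes of a gene can differ from the one kept, and probe counts are not given for every gene named.

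Differences were tested with limma 3.58.1 in R 4.3.3 (lmFit, eBayes) over all 8 arrays and 4 groups, with the replicate number as a block (3 residual and 5.87 prior degrees of freedom) and Benjamini-Hochberg adjustment over all features. The pairing follows the replicate numbers in the sample titles, and arrays with the same number deviated together (r of 0.613 to 0.865 over 6 pairs of groups). The script was tested on simulated data. Tables were handled in Python 3.11.15 with pandas 2.3.3.

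Members and the 36 gene lists (801 of 860 entries measured) were chosen with earlier results of these data known. The genes named were Ehmt2 and Ehmt1, the 15 highest and 15 lowest by the smaller pair difference, up to 4 leading members of each list, and a few regulators. The remaining members of the 0.5 sets and Mb were named after their values were seen. Alternatives covered scaling, probe choice, the block, the arrays in the fit, the threshold and the log base.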

Additional observations from a re-analysis of the deposited data

Results flagged for a closer look

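Some values differed in sign between day 0 and day 1 in every replicate pair. Fgf21 differed by 0.91 at day 0, higher in both pairs, and by -0.18 at day 1, lower in both (limma adjusted p of the difference between days 0.92, unadjusted 0.00228). Sphk1, sphingosine kinase 1, differed by 0.53 at day 0 and -0.07 at day 1 (limma adjusted p 0.92, unadjusted 0.00353). Only 1 of the 3 Sphk1 probes was higher in both day 0 pairs. Cox6c differed by 0.38 at day 0 and -0.22 at day 1 (limma adjusted p 0.92, unadjusted 0.0111). Ccl2 differed by -0.39 at day 0 and 0.08 at day 1 (limma adjusted p 0.95), and Myf5 by -0.17 and 0.03 (limma adjusted p 0.92). None of the 5 differences between days passed the adjusted threshold.

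The medians of 5 lists also turned in both pairs, a difference that was not tested. The median of all features turned as well, from -0.0634 and -0.0041 in the day 0 pairs to 0.0087 and 0.0328 in the day 1 pairs. The H3K9 methyltransferase and germline lists, and Myf5 and Ccl2 above, turned in that same direction. The matrix list had a median of 0.14 at day 0 and -0.04 at day 1. The H3K9 methyltransferases had -0.0625 at day 0 and 0.10 at day 1, the germline genes -0.0278 and 0.05, the hypoxia and glycolysis genes 0.0360 and -0.01, and the IGF system 0.0021 and -0.13.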

How the results depend on the processing

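No feature was called at day 0 under median centring, quantile normalization, averaged probes, single probes, robust eBayes or no replicate block (123 features at unadjusted p under 0.05 without it), and the replicate block changed no call in a paired comparison of days or at day 1. With the day 0 arrays alone and the replicate block, 499 features were called, 488 of them the same way in both pairs and all 85 of the 0.5 sets among them, and 628 with median centring as well, a setting added after seeing the data. That fit has 1 residual degree of freedom and gave every feature the same spread, so its calls follow the size of the difference. Ehmt2 passed there, at -1.67, and at -1.63 with centring. Leaving out 1 array at a time gave 0 to 1 calls, the 1 being Mb, myoglobin, without siG9a replicate 2, and Ehmt2 differences of -2.10 to -1.23. The lone array is then assumed to vary like the other groups. Counts at 0.5 in both pairs need both pairs and were not recomputed that way.

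Features higher by 0.5 in both pairs numbered 26 with quantile normalization, 36 with averaged probes and 62 with centring, and lower ones 9, 18 and 23. At thresholds of 0.25, 0.75 and 1 there were 396, 13 and 3 higher and 455, 3 and 1 lower. Read as natural logs, the values gave 166 higher and 111 lower. The day 1 shares ranged over 68.0% to 80.8% for the higher and 83.3% to 100% for the lower set. Of the named genes, Map7d1 alone changed sign, to 0.0015 with centring, 0.0605 with quantile normalization and 0.0107 with averaged probes. Medians of gene lists near 0 changed sign 21 times over 3 settings. The cause of these differences was not tested.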
